A study of Rattus norvegicus with 15 samples.

Results

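Transcripts of 5 genes of antigen processing and presentation, Tap1, Tap2, Psmb8, Psme2 and RT1-Bb, were followed in rat liver through cirrhosis and hepatocellular carcinoma. They were taken as the probes whose single gene symbol in the platform annotation is 1 of these names, which gave 1 probe per gene and 5 genes of the 3400 on the arrays. The choice drew on their own values in these samples, above all on those in carcinoma, so the values of the 5 genes are given here as a description, without tests. All tissue came from male Fischer344 rats (1 control sample is labelled Fischer) after 70 weeks on a diet. The 5 control samples are normal liver after a basal diet. A further 10 samples come from rats on a choline-deficient diet defined in its L-amino acids: 5 are hepatocellular carcinomas and 5 are the cirrhotic, noncancerous liver around such tumours. No agent other than the diet is named in the labels. Whether samples of a group are separate animals, or samples with 1 number share an animal, is not stated there, so spreads and p-values measure the variation between these samples, which may in part be technical.

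Cells show the immune system fragments of their own proteins on class I molecules of the major histocompatibility complex, named RT1 in the rat. The proteasome cuts the proteins, the TAP transporter, a pair of the subunits Tap1 and Tap2, carries the peptides into the endoplasmic reticulum, and loading factors place them on class I. Under interferon-gamma the proteasome takes up catalytic subunits of the immunoproteasome, Psmb8 among them, and an activator ring built of Psme1 and Psme2. RT1-Bb encodes the beta chain of a class II molecule, which shows peptides from engulfed material and is made mainly by professional antigen-presenting cells. In healthy liver such cells include Kupffer and dendritic cells, while hepatocytes carry class I at low levels, and loss of TAP or immunoproteasome subunits is a known feature of many tumours.

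The promoters of the 5 genes are shown because 4 of them share 1 short element. Each window runs from 250 bases before to 50 bases after the gene start in RefSeq, on the rat build GRCr8, and is written in the direction of the gene; all 5 genes matched by gene identifier. Capitals mark the core of an interferon-stimulated response element, GAAA, any 2 bases and GAAA, on either strand, and in RT1-Bb, which holds no such core, an inverted CCAAT box, ATTGG, of the kind found in class II promoters.
Tap1 promoter, chr20:4668494-4668793, minus strand: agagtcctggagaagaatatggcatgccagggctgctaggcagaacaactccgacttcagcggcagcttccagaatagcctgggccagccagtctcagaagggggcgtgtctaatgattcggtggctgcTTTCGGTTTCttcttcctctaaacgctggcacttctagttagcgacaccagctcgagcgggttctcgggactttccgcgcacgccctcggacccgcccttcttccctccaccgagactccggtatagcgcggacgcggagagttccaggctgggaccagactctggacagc
Tap2 promoter, chr20:4652247-4652546, minus strand: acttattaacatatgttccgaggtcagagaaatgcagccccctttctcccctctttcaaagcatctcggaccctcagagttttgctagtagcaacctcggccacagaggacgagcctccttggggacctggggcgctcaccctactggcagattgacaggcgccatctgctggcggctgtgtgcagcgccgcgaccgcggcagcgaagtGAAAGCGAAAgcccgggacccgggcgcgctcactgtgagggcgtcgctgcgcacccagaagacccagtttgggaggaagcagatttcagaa
Psmb8 promoter, chr20:4656982-4657281, minus strand: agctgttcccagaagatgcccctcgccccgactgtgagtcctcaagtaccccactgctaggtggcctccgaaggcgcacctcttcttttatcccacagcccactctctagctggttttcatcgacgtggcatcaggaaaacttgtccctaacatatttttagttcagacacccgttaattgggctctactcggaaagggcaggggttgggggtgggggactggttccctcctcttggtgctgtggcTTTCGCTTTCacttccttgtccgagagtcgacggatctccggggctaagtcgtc
Psme2 promoter, chr15:33052702-33053001, minus strand: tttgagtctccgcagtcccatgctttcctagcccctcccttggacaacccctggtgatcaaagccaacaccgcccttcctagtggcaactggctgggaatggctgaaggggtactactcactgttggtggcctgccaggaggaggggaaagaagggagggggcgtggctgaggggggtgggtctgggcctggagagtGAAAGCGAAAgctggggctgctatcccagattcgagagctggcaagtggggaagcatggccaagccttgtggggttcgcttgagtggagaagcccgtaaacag
RT1-Bb promoter, chr20:4604069-4604368, minus strand: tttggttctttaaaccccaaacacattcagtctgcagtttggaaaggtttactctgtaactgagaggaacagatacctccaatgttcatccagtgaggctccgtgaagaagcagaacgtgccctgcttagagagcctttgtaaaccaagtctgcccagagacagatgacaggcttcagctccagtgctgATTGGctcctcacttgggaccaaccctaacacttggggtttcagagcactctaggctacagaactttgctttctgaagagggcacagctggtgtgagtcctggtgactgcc
RefSeq places Psmb8 between Tap2 and Tap1 on chromosome 20, with RT1-Bb on the same chromosome and Psme2 on chromosome 15. The response element core stands in 4 of the 5 windows and in 3.92% of all 33469 windows of this length. In Tap2, Psmb8 and Psme2 the same letters, GAAAGCGAAA, occur, read on the opposite strand in Psmb8, and the match starts 41, 4 and 53 bases before the gene start. In Tap1 the match reads GAAACCGAAA on the opposite strand and starts 121 bases before the gene start. Of the other motifs searched on both strands, an NF-kB core, GGGA, any 4 bases and CC, lies in Tap1 (GGGACTTTCC) and RT1-Bb and in 19.3% of all windows, and a gamma-activated site core, TTCNNNGAA, in Psmb8 and in 8.87%. The GC box GGGCGG lies in Tap1 and Psme2 (33.1% of all windows) and ATTGG in RT1-Bb and Psmb8 (37.5%). No match marked in capitals overlaps one of another motif. The motifs were picked with the sequences in view, and a match is a description of letters, not of a bound site. Beyond the members, 83 measured genes held the response element core. Of these 48 were lower and 35 higher in carcinoma than in cirrhotic liver, with a median log2 difference of -0.26, against 1339 lower of 2635 measured genes with a promoter and a median of -0.02. In limma 0 of the 83 passed the adjusted threshold there, and 7 higher and 2 lower had an unadjusted p under 0.05. Of the 2635 genes 167 higher and 155 lower had such a p in limma. Against control liver 44 of the 83 were higher and 39 lower in carcinoma (median 0.08), and 39 were higher and 44 lower in cirrhotic liver (median -0.03). Of the 2635 genes 1323 were higher in carcinoma than in control liver (median 0.0) and 1325 in cirrhotic liver (median 0.01).

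Each value is a ratio of a probe's signal to its own median over the 15 arrays, so 1 is the middle sample of that gene and no level can be set against that of another gene. Whether hepatocyte or immune markers are present at all cannot be read from such ratios either. Deposited ratios stop at a lower limit of 0.01, which 657 values in 555 probes reached, 229 of them in control 1 and 209 in cirrhotic 1 (0 to 76 in each other sample). Comparisons used log2 ratios after quantile normalization, which gives every array the same distribution. No probe of 3757 passed an adjusted p of 0.05 in limma in any of the 3 comparisons. Unadjusted limma p-values under 0.05 were given to 9.64% of probes for cirrhotic against control liver (4.02% higher, 5.62% lower), 7.4% for carcinoma against control liver (3.65% higher, 3.75% lower) and 13.2% for carcinoma against cirrhotic liver (6.95% higher, 6.28% lower). Under a scaling of all arrays to 1 common median, carcinoma against control liver had 180 higher of 292, beside 137 of 278. The number of arrays limits the precision, with a median half-width of the 95% interval of 1.27 on the log2 scale.

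Tap1, the TAP subunit whose gene lies next to Psmb8, was far lower in carcinoma than in either other tissue. Its deposited ratios in control liver were 4.8, 1.0, 25.9, 0.504 and 1.53 in samples 1 to 5. In cirrhotic liver they were 2.21, 2.64, 1.13, 0.774 and 1.27. In carcinoma they were 0.683, 0.01, 0.01, 0.576 and 0.204, so carcinomas 2 and 3 stood at the lower limit and can have been lower still. All 5 carcinomas lay below all 5 cirrhotic samples, but only by 0.09 on the log2 scale at the nearest pair, and they overlapped the control samples through control 4. The mean normalized log2 ratio was 1.04 ± 1.99 in control liver, 0.63 ± 1.01 in cirrhotic liver and -2.81 ± 2.31 in carcinoma (SD, n = 5 each). Carcinoma differed from cirrhotic liver by -3.43 ± 0.98 (SE) and from control liver by -3.85 ± 0.98. Both sizes depended on the lowest values: with all normalized ratios raised to at least the 25th percentile, 0.634, they were -1.25 and -1.81. That floor raised carcinomas 2 and 3, and also carcinoma 5 and control 4, which were not at the lower limit. The part of the values at the limit alone is not given by it. Cirrhotic and control liver, neighbours in the order of levels, differed by -0.42, less than the spread in either, and the sign turned without control 3 (0.27).

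Tap2, the partner subunit of the transporter, was lower in carcinoma than in cirrhotic liver. Its step was smaller than that of Tap1, except with ratios raised to the 25th percentile (-1.4 for Tap2, -1.25 for Tap1). Control samples 1 to 5 had ratios of 1.17, 0.31, 3.32, 0.592 and 1.39. Cirrhotic samples had 7.07, 1.53, 0.978, 1.77 and 2.26. Carcinomas had 0.82, 0.714, 0.46, 0.391 and 1.0. After normalization 4 of the 5 carcinomas lay below all cirrhotic samples, carcinoma 1 only in the digits beyond -0.29, the value of cirrhotic 3, and carcinoma 5 lay above cirrhotic 3. The mean log2 ratio was -0.01 ± 1.26 in control liver, 0.95 ± 0.80 in cirrhotic liver and -0.62 ± 0.47 in carcinoma (SD, n = 5 each). The difference of carcinoma from cirrhotic liver was -1.57 ± 0.57 (SE). Control liver stood between the tissues of the choline-deficient diet. Carcinoma differed from it by -0.61 and cirrhotic liver by 0.95, both less than its own SD of 1.26. The difference of carcinoma was -0.19 without control 3 and -0.96 without control 2.

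Psmb8, the immunoproteasome subunit that replaces a constitutive catalytic subunit, followed the order of Tap2. Its ratios in control samples 1 to 5 were 1.85, 0.598, 1.56, 0.418 and 1.53. In cirrhotic samples they were 2.84, 2.07, 1.56, 1.0 and 1.7. In carcinomas they were 0.902, 0.946, 0.391, 0.0851 and 0.912. Carcinomas 1, 2 and 5 lay just under the middle of the series, while carcinoma 4 stood far below every other sample. The carcinomas did not overlap cirrhotic liver, with 0.14 on the log2 scale between the nearest samples, and overlapped control liver. The mean log2 ratio was -0.05 ± 1.17 in control liver, 0.88 ± 0.57 in cirrhotic liver and -1.35 ± 2.19 in carcinoma (SD, n = 5 each). Carcinoma differed from cirrhotic liver by -2.23 ± 0.79 (SE), but by -1.26 without carcinoma 4. From control liver it differed by -1.29, but by -0.33 without carcinoma 4. Cirrhotic liver was above control liver by 0.93, and by 0.48 without control 4, and the difference of medians was 0.32. After normalization 4 of 5 cirrhotic samples lay above all control samples. On the deposited ratios cirrhotic 3, 4 and 5, at 1.56, 1.0 and 1.7, lay below control 1 at 1.85. Normalization lowered the extreme value of carcinoma 4, and on the deposited ratios the difference from cirrhotic liver was -1.85.

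Psme2, the beta subunit of the proteasome activator, went the other way and was higher in carcinoma than in both other tissues. Control samples 1 to 5 had ratios of 0.164, 1.06, 0.117, 1.0 and 0.193. Cirrhotic samples had 2.58, 0.197, 0.833, 0.522 and 0.558. Carcinomas had 2.34, 2.21, 1.59, 2.08 and 3.58. All 5 carcinomas lay above all control samples, by 0.63 on the log2 scale at the nearest pair, and only cirrhotic 1 reached their range. The carcinomas were close together, with a mean log2 ratio of 1.13 ± 0.33, while control liver had -1.08 ± 1.08 and cirrhotic liver -0.91 ± 1.3 (SD, n = 5 each). Carcinoma was above control liver by 2.21 ± 0.65 (SE), or 4.62-fold, and above cirrhotic liver by 2.04 ± 0.65, or 4.11-fold. Cirrhotic liver and control liver differed by 0.17, far within their spread, and it depended on the setting in both directions. It was 0.99 on the deposited ratios and 0.32 after the running median along the probe numbers was subtracted, but -0.28 without cirrhotic 1 and -0.37 without control 1 and cirrhotic 1.

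RT1-Bb, the class II beta chain, was lowest in cirrhotic liver and highest in carcinoma. Control samples 1 to 5 had ratios of 0.692, 1.7, 1.04, 1.0 and 0.357. Cirrhotic samples had 0.29, 0.3, 0.698, 0.719 and 0.663, all under the middle of the series. Carcinomas had 1.26, 1.49, 2.27, 1.17 and 1.24, all over it. The groups from the choline-deficient diet did not overlap, with 0.73 on the log2 scale between the nearest samples. The mean log2 ratio was -0.15 ± 0.73 in control liver, -1.03 ± 0.49 in cirrhotic liver and 0.57 ± 0.49 in carcinoma (SD, n = 5 each). Carcinoma was above cirrhotic liver by 1.59 ± 0.51 (SE), or 3.01-fold. Its step from control liver was 0.72, about the control SD of 0.73, and fell to 0.48 without control 5. The step from control to cirrhotic liver was -0.87, of which 2 cirrhotic samples lay below all control samples. In bulk tissue, fewer cells of a type and less RNA per cell cannot be told apart, for this gene of antigen-presenting cells as for the others.

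**Figure D1:**
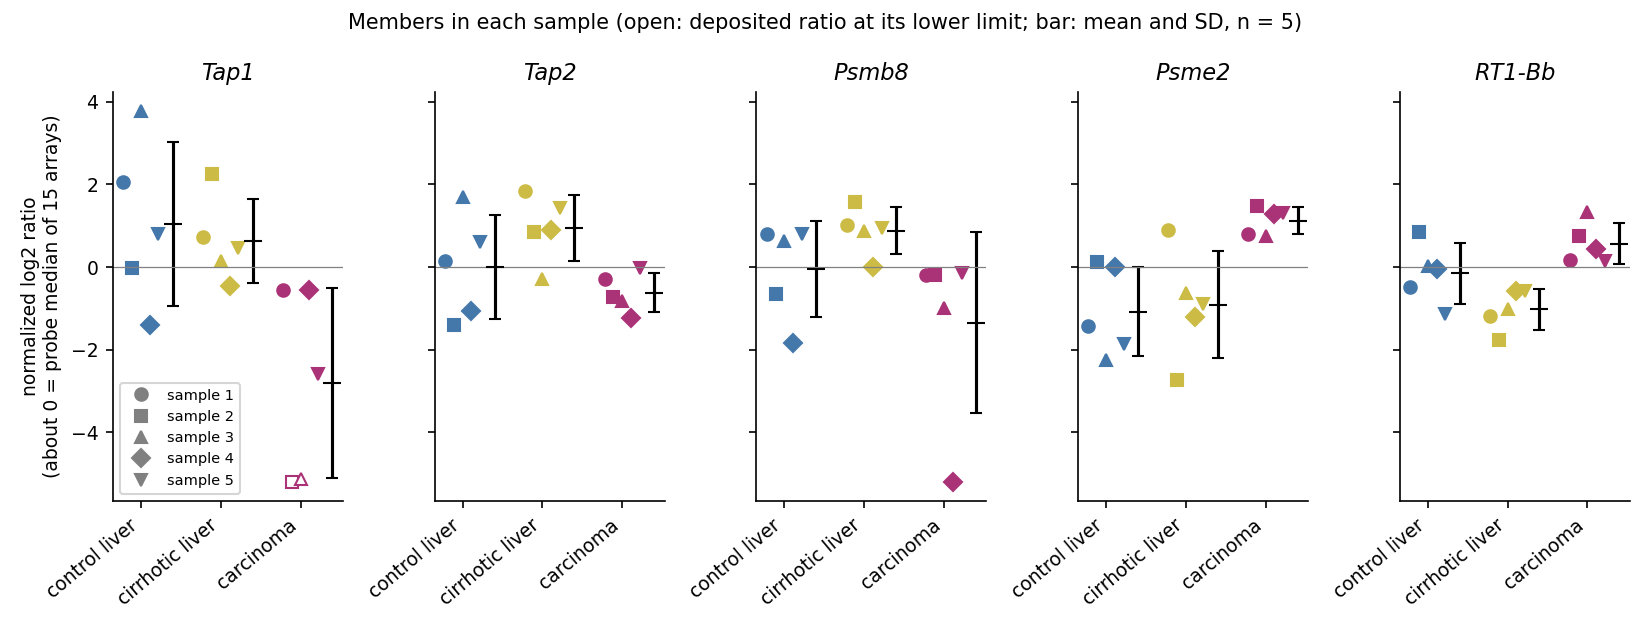
Normalized log2 ratio (y axis) of the 5 genes, 1 panel each, in control liver, cirrhotic liver and carcinoma (x axis); each symbol is 1 sample, its shape gives the sample number, open symbols had a deposited ratio at the lower limit of 0.01, and the black bars are mean and SD (n = 5). Tap1, Tap2 and Psmb8 have their lowest mean in carcinoma, and Psme2 and RT1-Bb their highest.

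The 5 genes thus moved in opposite directions between cirrhotic liver and carcinoma: Tap1, Tap2 and Psmb8 were lower by 3.43, 1.57 and 2.23 on the log2 scale, and Psme2 and RT1-Bb higher by 2.04 and 1.59. The 2 subunits of the transporter were both lower, whereas the 2 genes of the proteasome machinery diverged. Groups did not overlap for Tap1, Psmb8 and RT1-Bb, 3 of 5, where 2.71% of all probes had this (1.25% higher, 1.46% lower); since the genes were chosen on this contrast, nothing is read from that share. Against control liver, Psme2 alone of the 5 had groups that did not overlap, beside 1.89% of all probes, and between cirrhotic and control liver none had, beside 1.65%. The comparisons share their samples, so the step of Tap1 and Psme2 against control liver is not independent of that against cirrhotic liver.

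**Figure D2:**
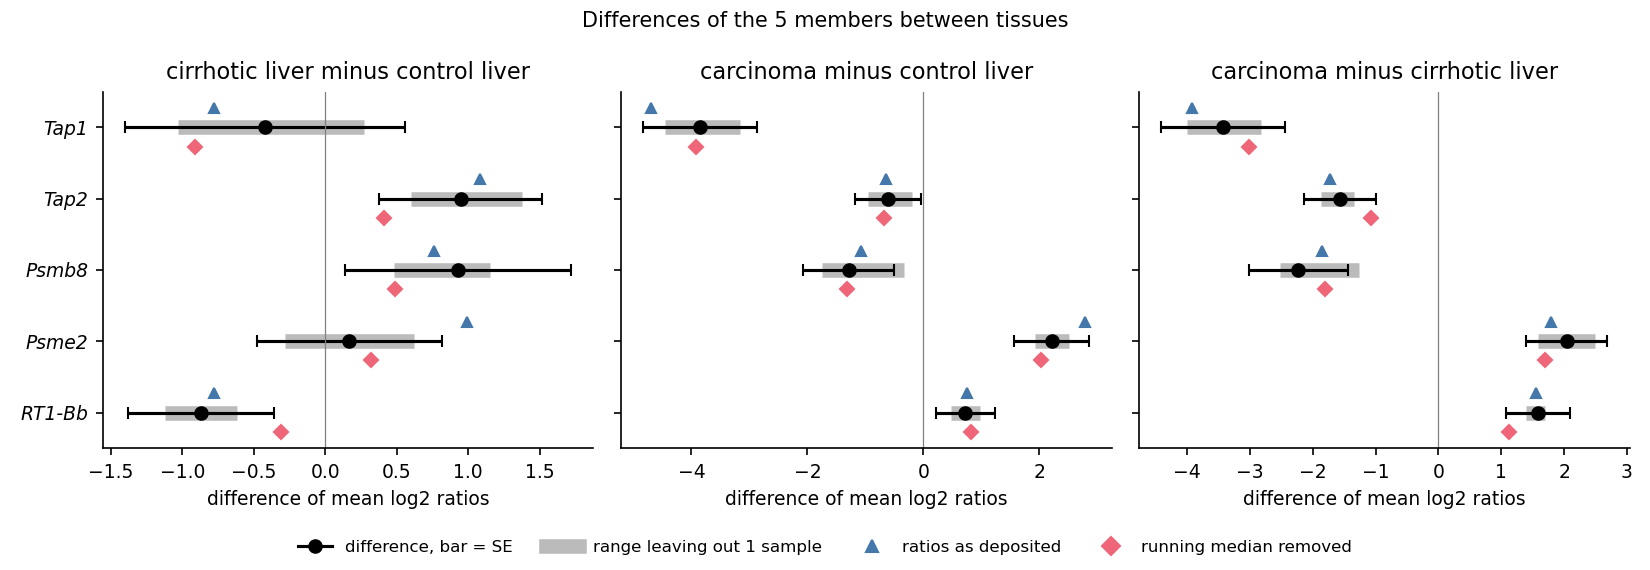
Difference of mean log2 ratios (x axis) for the 5 genes in the 3 comparisons; black points carry the SE, grey bands span the values with 1 sample of the compared groups left out, blue triangles use the deposited ratios and red diamonds the values after the running median along the probe numbering was removed. In both comparisons with carcinoma Tap1, Tap2 and Psmb8 lie below 0 and Psme2 and RT1-Bb above 0 in every setting drawn.

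These directions coincided with the place of the probes in the array's numbering. The probes of Psmb8, Tap1 and Tap2 have the numbers 14, 1023 and 1048, and those of Psme2 and RT1-Bb the numbers 2962 and 3039. Between carcinoma and cirrhotic liver, the neighbours within 50 numbers were also shifted, with medians of -0.41 around Psmb8, -0.47 around Tap1 and -0.53 around Tap2, but 0.43 around Psme2 and 0.59 around RT1-Bb. Each of the 5 genes moved in the direction of its neighbourhood and further than its median. Of 89 neighbours of Tap1 and 87 of Psme2, 0 lay beyond the gene, while 1 of 57 lay beyond Psmb8, 6 of 100 beyond RT1-Bb and 11 of 95 beyond Tap2. Because the genes were chosen on this contrast, nothing is read from their places beyond the neighbours. After a running median along the probe numbers was subtracted from every array, the differences were -3.01 for Tap1, -1.08 for Tap2, -1.80 for Psmb8, 1.70 for Psme2 and 1.12 for RT1-Bb. The signs were kept and each value was smaller. Psmb8 still did not overlap between carcinoma and cirrhotic liver, whereas Tap1 and RT1-Bb did, Tap1 through carcinoma 4 with a remaining log2 ratio of 0.05. Between carcinoma and control liver the neighbourhoods were shifted less. Their medians were 0.18 around Tap1, 0.13 around Tap2, 0.04 around Psmb8 and -0.10 around RT1-Bb, each opposite to the gene, and 0.40 around Psme2, in its direction. With the running median removed Psme2 differed by 2.02 there, with no overlap. Between cirrhotic and control liver the neighbours of RT1-Bb had a median of -0.62 beside -0.87 for the gene, those of Tap2 0.59 beside 0.95 and those of Psmb8 0.49 beside 0.93. Tap1, at -0.42 beside neighbours at 0.57, and Psme2, at 0.17 beside -0.20, lay opposite to theirs. With the running median removed these steps were -0.31 for RT1-Bb, 0.41 for Tap2, 0.49 for Psmb8, -0.91 for Tap1 and 0.32 for Psme2. The part of the shift along the numbering in the opposite directions of the 5 genes was not tested.

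**Figure D3:**
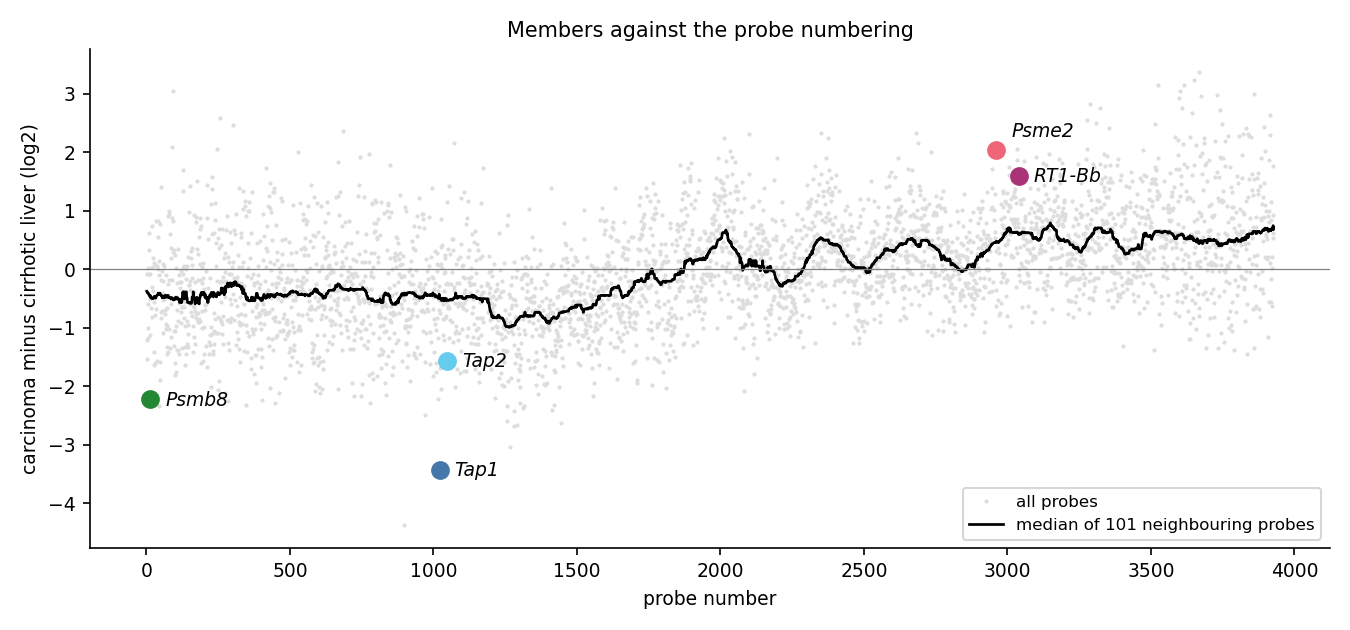
Log2 difference between carcinoma and cirrhotic liver (y axis) of all 3757 probes (grey) along the probe number (x axis), with the running median of neighbouring probes as a black line and the 5 genes as coloured points. The line runs below 0 at the low numbers that hold Psmb8, Tap1 and Tap2 and mostly above 0 around Psme2 and RT1-Bb, and the genes lie beyond it.

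Single carcinomas carried the changes to very different degrees. For Tap1, carcinomas 2 and 3 contributed 34.0% and 33.5% of the summed shift from the cirrhotic mean, carcinoma 5 gave 18.7%, and carcinomas 1 and 4 gave 6.9% each. Carcinomas 2 and 3 stood at the lower limit of 0.01, so their shares are set by that limit and are not exact. Leaving out 1 sample moved the difference between -4.00 and -2.83, and the difference of group medians was -3.06. For Psmb8, carcinoma 4 alone contributed 54.8%, and the difference of medians was -1.12 beside -2.23 for the means. Against control liver that sample made up 79.7% of the shift of Psmb8. Both shares rest on the normalized values, and normalization had lowered carcinoma 4. On the deposited ratios Psmb8 differed by -1.85 from cirrhotic and by -1.08 from control liver, beside -2.23 and -1.29. Shares on those ratios were not computed. The tumours lowest in Tap1 were therefore not the tumour lowest in Psmb8, and carcinoma 4, with a Psmb8 ratio of 0.0851, had a Tap1 ratio of 0.576. For Tap2 the shares ran from 12.4% in carcinoma 5 to 28.0% in carcinoma 4, and for RT1-Bb from 14.8% in carcinoma 5 to 29.6% in carcinoma 3. Psme2 was the most even, with 16.4% to 23.5% per tumour.

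**Figure D4:**
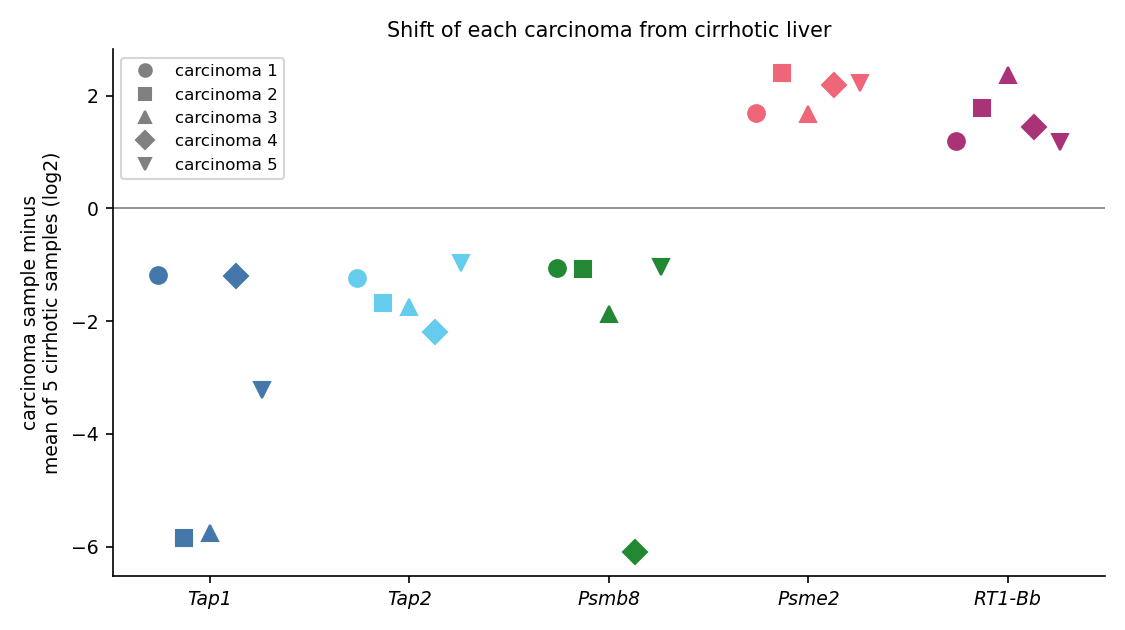
Log2 ratio of each of the 5 carcinomas minus the mean of the 5 cirrhotic samples (y axis) for each gene (x axis), with the symbol giving the carcinoma number. Carcinomas 2 and 3 lie at -5.84 and -5.75 for Tap1 and carcinoma 4 at -6.09 for Psmb8, while the other 3 genes show 5 tumours close together.

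Other measured genes were read from lists drawn up around the same machinery, and none of them passed the adjusted test. Of 51 differences named for these lists, leaving out 1 sample turned the sign of 6 and turned or moved by over 1.5 times 34, and subtracting the running median along the numbering did so for 25. Apart from the members, 7 genes on the class I loading list were measured. Of these 4 were higher and 3 lower in carcinoma than in cirrhotic liver. Their median was 0.07 beside -0.02 over all probes, or -0.23 with the running median removed. In limma 0 passed an adjusted p of 0.05 and 1 an unadjusted one, beside 13.2% of all probes. That gene was Pdia3, a disulphide isomerase of the loading complex, with 0.88 ± 0.90 in carcinoma and -1.08 ± 0.87 in cirrhotic liver (SD, n = 5 each). Its difference was 1.96 (95% interval 0.80 to 3.12, limma adjusted p = 0.224), and 1.39 with the running median along the numbering removed. The chaperone Calr differed by 0.85, and by 0.29 with the running median removed. B2m, the light chain of class I, differed by -1.42 (-3.08 to 0.25, limma adjusted p = 0.435), and by -0.77 without carcinoma 3. Lnpep, an aminopeptidase that trims peptides for cross-presentation, differed by -0.87 (-2.05 to 0.31). Against control liver 6 of the 7 were higher in carcinoma, with a median of 0.62 beside 0.00 over all probes. The highest were Fcgrt, the neonatal Fc receptor and not a peptide-loading factor, at 0.99 and Calr at 0.88, while Lnpep differed by -0.81. In that comparison 0 passed the adjusted and 0 the unadjusted limma threshold. In cirrhotic against control liver B2m differed by 2.04 (0.37 to 3.70, limma adjusted p = 0.421), the chaperone Hspa5 by 1.20, Pdia3 by -1.17 and Erap1, which trims peptides for class I, by -0.01. There 0 of the 7 passed the adjusted threshold and 2 the unadjusted one, 1 in each direction, beside 9.64% of all probes.

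The direct partners of the members were also measured. Psmb9, an immunoproteasome subunit whose gene lies next to Tap1, differed by -0.69 (-2.04 to 0.65) between carcinoma and cirrhotic liver, by 0.34 between carcinoma and control liver, and by 1.03 between cirrhotic and control liver. Without cirrhotic 3 the first of these was -0.27. Psme1, which forms the activator ring with Psme2, differed by -0.05 (-0.96 to 0.87), 0.17 and 0.21 in the same comparisons. In limma 0 of these 2 genes passed an adjusted or an unadjusted p of 0.05 in any of the 3.

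The 18 measured genes of the constitutive proteasome were split evenly in both comparisons with carcinoma, 9 higher and 9 lower, with medians of -0.02 against cirrhotic and -0.01 against control liver. With the running median removed the medians were 0.31 (11 of 18 higher) and 0.00. Their differences ran from -0.63 to 0.95 against cirrhotic and from -0.74 to 0.87 against control liver, and 0 passed an adjusted or an unadjusted p of 0.05 in limma. Psma2 and Psmc4 were furthest above 0 against cirrhotic liver (0.95 and 0.82) and Psmd10 and Psma5 furthest below (-0.63 and -0.60). Against control liver Psma2 and Psmb1 lay highest (0.87 and 0.74) and Psma5 and Psmb6 lowest (-0.74 and -0.46). Psmb6 is the catalytic subunit that Psmb9 replaces. Between cirrhotic and control liver, where 7 were higher and 11 lower, the range was -0.71 (Psmc4) to 0.66 (Psmb1), with Psmc1 at 0.54 and Psmd1 at -0.54, and again 0 passed either threshold. The median there was -0.03, or -0.37 with the running median removed.

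Among class II genes other than RT1-Bb, 5 of 6 were higher in carcinoma than in cirrhotic liver, with a median of 0.57, or 4 of 6 with a median of 0.23 after removal of the running median; 0 passed the adjusted and 0 the unadjusted limma threshold. RT1-DMa and RT1-DMb, which exchange peptides on class II, differed by 1.06 (-0.49 to 2.61) and 0.84 (-0.12 to 1.80). The alpha chain RT1-Da differed by 0.61, and by 0.25 with the running median removed. Cd74, the invariant chain, differed by 0.07 (-0.29 with the running median removed) and the protease Ctss by -0.60. Between cirrhotic and control liver RT1-DMb was the 1 gene of the pathway lists whose groups did not overlap, beside 0.985% of all probes separated in this direction, with a mean of -0.77 ± 0.51 against 0.16 ± 0.28 in control liver (SD, n = 5 each). Its difference was -0.93 (-1.89 to 0.03, limma adjusted p = 0.521). RT1-DMa differed by -1.39 in the same direction, and the lysosomal protease Lgmn by 0.11. In carcinoma against control liver 3 of the 6 were higher, with a median of -0.03, Lgmn at 0.63, RT1-Da at 0.55, Ctss at -0.67 and RT1-DMa at -0.33. Single samples moved these values: Lgmn was 0.13 without control 3, RT1-Da 0.29 without carcinoma 2, and RT1-DMa -1.06 without control 4 and 0.08 without control 2. No member of this list passed the adjusted or the unadjusted threshold in these comparisons either. The probes of RT1-Da, RT1-DMa and RT1-DMb have the numbers 3234, 3327 and 3328, not far above that of RT1-Bb, and with the running median removed RT1-DMa and RT1-DMb differed by 0.39 and 0.20 between carcinoma and cirrhotic liver and RT1-DMb by -0.04 between cirrhotic and control liver.

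Of the 28 measured genes of the interferon and NF-kB response, none passed the adjusted test. In carcinoma 19 were lower and 9 higher than in cirrhotic liver, with a median of -0.54, and in cirrhotic liver 19 were higher than in control liver, with a median of 0.60; over all probes the medians were -0.02 and 0.02. The list medians were -0.42 and 0.28 with the running median removed. In limma 0 passed the adjusted threshold in either comparison, and 3 and 4 of the 28 had an unadjusted p under 0.05, beside 13.2% and 9.64% of all probes. Nfkb1, a subunit of NF-kB, differed by -1.94 between carcinoma and cirrhotic liver (-3.43 to -0.46, limma adjusted p = 0.262), and the adhesion molecule Vcam1 by -1.65 (-3.23 to -0.07, limma adjusted p = 0.358). Without the shift along the numbering these were -1.6 and -1.3. Icam1 was on the other side with 1.02 (0.72 with the running median removed) and the feedback inhibitor Socs1 with 1.06 (0.51). Between cirrhotic and control liver Mx2, an interferon-induced antiviral protein, differed by 1.77 (0.34 to 3.20, limma adjusted p = 0.413) and Nfkb1 by 1.52, while Socs3 and Icam1 differed by -1.21 and -0.65. Socs3 was at -0.38 with the running median removed, and Icam1 at -0.21 without cirrhotic 2. Against control liver the list was near even in carcinoma, 15 higher and 13 lower with a median of 0.05, and Ifng, interferon-gamma itself, differed by -1.27 (-2.36 to -0.19, limma adjusted p = 0.598). Ifnb1 differed by -1.10, and Mx2 and Eif2ak2, an RNA-sensing kinase, by 0.73 and 0.72. There 0 passed the adjusted and 1, Ifng, the unadjusted threshold, beside 7.4% of all probes.

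**Figure D5:**
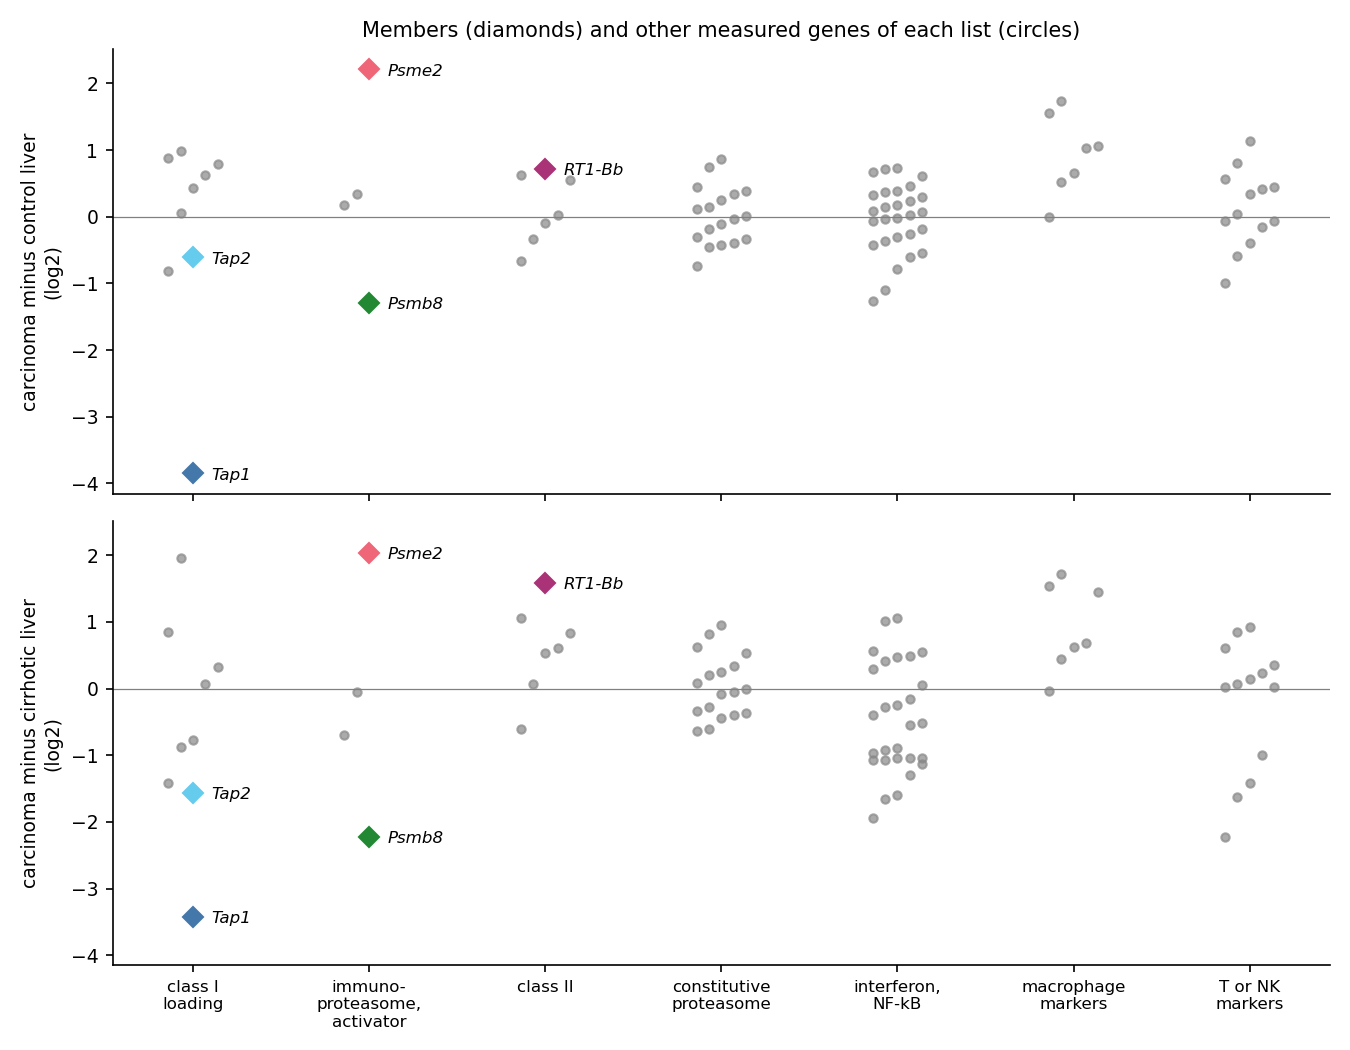
Log2 difference of carcinoma from control liver (upper panel) and from cirrhotic liver (lower panel) for the 5 genes (diamonds) and for the other measured genes of each list (circles, x axis). Tap1 and Psmb8 lie below, and Psme2 above, all other circles of their own lists, and macrophage markers lie mostly above 0.

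Markers of other cells were read beside these values. Of 7 measured markers of macrophages, Kupffer or dendritic cells, 6 were higher in carcinoma than in cirrhotic liver (median 0.68) and 6 than in control liver (median 1.03). In each comparison 0 passed the adjusted and 1 the unadjusted limma threshold, beside unadjusted shares of 13.2% and 7.4% of all probes. The mean log2 ratio of these markers per sample ran from -0.03 to 0.89 in carcinoma, from -1.53 to 0.43 in cirrhotic liver and from -1.31 to 0.26 in control liver. These ranges overlapped. RT1-Bb and Psme2 were higher in the same tissue, and the part of these cells in their values was not tested. The 13 markers of T or NK lymphocytes had means per sample of -0.80 to 0.39 in carcinoma, -0.13 to 0.41 in cirrhotic and -0.62 to 0.20 in control liver, and medians of the differences of carcinoma of 0.07 and 0.04. Il2rb, a receptor chain for interleukin-2 and interleukin-15, was lower in carcinoma than in cirrhotic liver with no overlap, by -1.41 (-2.36 to -0.45, limma adjusted p = 0.234), and Ctla4, an inhibitory receptor, higher with no overlap, by 0.85 (0.28 with the running median removed). Of all probes 1.46% were lower and 1.25% higher with no overlap in that comparison. Cd28, a costimulatory receptor, was higher in cirrhotic than in control liver with no overlap, by 2.57 (0.45 to 4.68, limma adjusted p = 0.421). Krt18, a keratin of hepatocytes and bile ducts, differed by -1.12 there, with no overlap. The share of probes without overlap between cirrhotic and control liver was 1.65%. The 12 hepatocyte markers had means per sample of -0.44 to 1.04 in carcinoma, -1.01 to 1.11 in cirrhotic and -1.02 to 0.23 in control liver, which overlapped. Of them 10 were higher in carcinoma than in control liver (median 0.53) and 7 than in cirrhotic liver (median 0.37). With the running median removed the hepatocyte medians were 0.73 and 0.27. The 4 markers of B lymphocytes or plasma cells differed by a median of 0.00 between carcinoma and cirrhotic liver, the 8 of stellate cells by 0.53, the 6 of bile duct or progenitor cells by -0.22 and the 4 of endothelial cells by -0.51. After removal of the shift along the numbering these medians were 0.43, 0.47, 0.19 and -0.60. In limma 0 genes of the marker lists passed the adjusted threshold between carcinoma and cirrhotic liver, and an unadjusted p under 0.05 was given to 2 hepatocyte, 2 T or NK, 4 stellate (2 higher, 2 lower), 1 macrophage and 1 endothelial marker and to 0 of the B lymphocyte and bile duct lists, beside 13.2% of all probes.

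Over the 15 samples the patterns of the members were compared by Pearson's r, as a description; the samples share tissue groups and the shifts along the numbering. Tap1 had an r of 0.58 with Tap2, 0.36 with Psmb8, -0.75 with Psme2 and -0.65 with RT1-Bb, and Psme2 had 0.63 with RT1-Bb. With the running median removed these were 0.55, 0.27, -0.71, -0.61 and 0.51. Tap2 and Psmb8 had 0.67, or 0.53 with the running median removed. With RT1-Bb, Tap2 had -0.65 and Psmb8 -0.57, which fell to -0.33 and -0.23 with the running median removed. With Psme2, Tap2 had -0.54 and Psmb8 -0.55, or -0.53 and -0.51 after that removal. The named genes most like Tap1 were Cd200 (r = 0.88), Pgf (0.76) and Scgb1d4 (0.76), and those most like Tap2 were Atp12a (0.86), Atp4b (0.84) and Eif5 (0.84). Psmb8 was most like Pbsn (0.90), Sdc2 (0.88) and Apoa4 (0.86). Psme2 was most like Kcnab1 (0.88), Timm13 (0.87) and Gorasp2 (0.87), and RT1-Bb most like St8sia3 (0.90), Ghrhr (0.87) and Slc29a1 (0.83). These 15 were the closest of all named probes, so their r is high by choice, and no member of the pathway lists was among them.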

How the data were processed

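The authors deposited a linear ratio for each of 3757 probes on 15 arrays, each probe divided by its own median over the arrays (1 within 1e-06 in all 3757); the array type, dyes, scanner and background correction behind it: not given in the sources used here. Groups and numbers came from the sample titles. The members and lists were chosen with earlier results of these data known. Gene names came from the platform annotation, in which 3440 probes had 1 symbol, 4 several and 313 none; of several probes of a list gene, the one least variable within groups was used. Trimmed array means (2% at each end) differed up to 1.49-fold, so ratios were quantile-normalized and put on the log2 scale. All samples entered 1 linear model (limma 3.58.1, R 4.3.3, eBayes with trend, 12 residual degrees of freedom), two-sided, with Benjamini-Hochberg adjustment over all probes and a threshold of 0.05. The fit was also run on simulated data, in which arrays without their group means were dealt at random to samples and known changes were added. Shifts of a tissue group along the probe numbering were not part of that check, and no result here rests on it. Normalization can move extreme values: Psmb8 in carcinoma 4 went from a ratio of 0.0851 to a log2 ratio of -5.21. Beside the members, the genes named were those of each pathway list with no overlap or among the 2 furthest on each side per comparison, markers with no overlap, the 3 named genes closest to each member, and Cd74, a pathway gene named after its value was seen. Alternatives were other scalings, a pseudocount of 0.1, a floor, a filter, removal of a running median along the probe numbering, other spread models, a replicate block and each sample left out. Figures used matplotlib 3.10.9.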

Additional observations from a re-analysis of the deposited data

Results flagged for a closer look

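Within groups of 5 samples, 7 single samples stood far from the other 4 by Dixon's criterion, out of 120 groups of the named genes; chance alone marks about 1 in 20 groups. Of the members, Psmb8 in carcinoma 4 was marked, at a log2 ratio of -5.21 with the next carcinoma at -1.0. The same tumour held the lowest value of Cd28, at -6.29 with the next at -0.27, and the highest of Ifnb1, at 1.91 with the next at -0.36. Krt18 in carcinoma 2 was at -1.96. In cirrhotic liver Cd28 in sample 2 was at 2.41 and Eif2ak2 in sample 3 at -1.31. In control liver Ctla4 in sample 2 was at 0.82. The probe of Cd28 has the number 1016, in the same stretch as Tap1 (1023) and Tap2 (1048) but not adjacent to them, and the cause of these values was not tested.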

How the results depend on the processing

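Of 387 values of member differences under other settings, 120 cannot differ from the main value by construction (another spread model, the replicate block, or a sample of the group not compared left out). Of the 267 that could move, 6 had the other sign, all for cirrhotic against control liver, 5 for Psme2 (-0.37 to -0.03) and 1 for Tap1 (0.27). The same Psme2 difference was 0.99 on the deposited ratios, beside 0.17. The members were chosen on their carcinoma values, so nothing is read from the signs of those. With ratios raised to the 25th percentile, Tap1 differed by -1.81 between carcinoma and control liver and by -1.25 between carcinoma and cirrhotic liver, since this setting cuts off low values. The filter on probes at the lower limit removed Tap1, so it gave no value for it. The leave-one-out counts of probes past the adjusted threshold were 0 to 2 for carcinoma against cirrhotic liver, the 2 without cirrhotic 5, and 0 in the other comparisons. Scaling each array to the same median moved the median of all probes to 0.11 for cirrhotic and 0.15 for carcinoma against control liver, and the unadjusted calls of the latter to 180 higher of 292, from 137 of 278. The replicate numbers gave no clear sign of pairing: same-numbered samples correlated between -0.34 and 0.39 in their deviations from the group means, and 3 of 15 were best matched by their own number. The samples numbered 1 correlated by 0.32 between cirrhotic and control liver and by 0.39 between carcinoma and cirrhotic liver, as best matches, and by 0.19 between carcinoma and control liver. Whether samples were paired cannot be told from these values. With the replicate block 0 probes passed in each comparison, and 506 had an unadjusted p under 0.05 between carcinoma and cirrhotic liver, beside 497. With the running median along the numbering removed, 151 probes had an unadjusted p under 0.05 between cirrhotic and control liver, beside 362, and with array weights 756 between carcinoma and cirrhotic liver, beside 497. Samples 1 of control and cirrhotic liver hold the most values at the lower limit. Leaving both out, a choice made after seeing the data, gave -3.41 for Tap1, -2.19 for Psmb8, 2.49 for Psme2 and 1.55 for RT1-Bb between carcinoma and cirrhotic liver.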
